A study of Mus musculus with 9 samples.

Results

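The genes described here encode the lens capsule, the thick basement membrane that surrounds the lens, and the related basement membrane proteins of the eye. They were chosen by name, as collagen IV chains, laminin chains, nidogens, heparan sulfate proteoglycans, matricellular and crosslinking proteins, proteins of the Fraser complex and dystroglycan. All 33 are in the deposited count table, out of 17527 gene symbols. RNA was sequenced from the anterior lens capsule of mice in 3 groups of 3 libraries each, labelled young control, old control and old EGCG, where EGCG is epigallocatechin gallate, a green tea catechin. The series title places the study in age-related cataract. The sources used here do not give the strain, sex or ages of the mice, nor how, at what dose or for how long EGCG was given, and they name no genetic modification. They also do not say whether the libraries of a group are separate animals, pooled animals or repeats of 1 preparation. The p-values therefore describe the spread among these libraries, and that spread could be technical.

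A basement membrane is a sheet of matrix laid down at the base of an epithelium. Laminins bind receptors on the cell surface and assemble first, a network of collagen IV is laid over them, and nidogens and the heparan sulfate proteoglycans perlecan and agrin link the layers. The lens capsule is made throughout life, at the front by the lens epithelium and at the back by lens fibre cells. Its collagen IV carries the tension by which the lens changes shape, and inherited faults in collagen IV chains, laminins or peroxidasin can disturb the lens in mice and humans.

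Library totals were 13184169 to 16528179 counts, and 3 counts in a library corresponded to between 0.183 and 0.232 CPM, the count relative to library size (corrected with the TMM factors of edgeR unless another scale is named). Markers of lens epithelium were present in every group, with summed levels of 1885 to 1887 CPM in young control, 2867 to 2932 in old control and 2729 to 2789 in EGCG libraries over 12 genes. Lens fibre markers (17 genes) summed to 37556 to 38037 CPM in young control, 40196 to 41933 in old control and 34809 to 36247 in EGCG libraries. With EGCG against old control 10 of the 17 were called lower (median log2 fold change −0.20), against 10.3% of all genes tested. The libraries also held RNA of other tissues: 18 photoreceptor markers summed to 22222 to 22371 CPM in young control, 1278 to 1336 in old control and 10054 to 10243 in EGCG libraries. For 12 endothelial markers the range was 149 to 153 CPM in young control, 55.9 to 58.2 in old control and 46.7 to 51.5 in EGCG libraries, and no marker of these 4 lists was at 0 in all libraries of a group. Müller glia markers also moved, with 1419 to 1450.3, 664 to 720.3 and 801 to 843 CPM, and 5 red blood cell markers summed to 205 to 215, 6.33 to 7.98 and 20.1 to 24.9 CPM in the same order. Sums over the 3 groups ran from 36.4 to 75.7 CPM for stromal fibroblast markers (highest in young control), from 196 to 291 for pigment cell markers (lowest in EGCG), from 20.3 to 47.6 for corneal epithelium markers (highest in old control) and from 26.9 to 35.5 for macrophage markers. Of the 4 corneal epithelium markers tested, 2 were called higher and 2 lower with age. Over all genes tested, 35.4% were called higher and 33.8% lower with age. For 9 pericyte and smooth muscle markers the sums were 406 to 427, 843 to 895 and 620.4 to 657 CPM in young control, old control and EGCG libraries, but these sums were mostly Acta2 (292 ± 7.38, 739 ± 22.0 and 524 ± 15.2 CPM; SD, n = 3) and Pdgfrb. With age Acta2 and Pdgfrb were higher and 6 of the 9 markers were lower, with a median log2 fold change of −1.25. In bulk tissue, fewer cells of a type and less RNA per cell cannot be told apart, and the part of these other cells in the results below was not tested.

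The 6 collagen IV genes lie in 3 head-to-head pairs, in which the genes of a pair are read away from each other from neighbouring starts (positions are in GRCm38, from GENCODE M21). The starts of Col4a1 (minus strand) and Col4a2 (plus strand) on chromosome 8, at 11312826 and 11312805, overlap by 22 bases. The starts of Col4a4 (minus strand) and Col4a3 (plus strand) on chromosome 1 are separated by 71 bases, and those of Col4a6 (minus strand) and Col4a5 (plus strand) on chromosome X by 1308 bases. The sequences below are the whole gap between Col4a4 and Col4a3 and, from the RefSeq promoter table (GRCm38.p6), the 250 bases before a start of 4 genes. These genes are Col4a6 of the chromosome X pair, Agrn with the greatest fall with age among the well expressed members, Tinagl1 with the greatest rise, and Fbln1 with the smallest p for EGCG against old control. Each sequence is written 5′ to 3′ on the strand of its gene, and capitals mark matches to 4 motifs searched on both strands, with overlapping matches counted: the GC box GGGCGG, the CCAAT box, the TATA box TATAAA and the AP-1-type motif TGANTCA. The intervals are chr1:82586850-82586920 on the minus strand for the gap, chrX:141474077-141474326 on the minus strand for Col4a6, chr4:156197489-156197738 on the minus strand for Agrn, chr4:130175123-130175372 on the minus strand for Tinagl1 and chr15:85205699-85205948 on the plus strand for Fbln1.
Col4a4 to Col4a3 gap: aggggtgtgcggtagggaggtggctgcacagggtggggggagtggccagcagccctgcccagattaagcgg
Col4a6: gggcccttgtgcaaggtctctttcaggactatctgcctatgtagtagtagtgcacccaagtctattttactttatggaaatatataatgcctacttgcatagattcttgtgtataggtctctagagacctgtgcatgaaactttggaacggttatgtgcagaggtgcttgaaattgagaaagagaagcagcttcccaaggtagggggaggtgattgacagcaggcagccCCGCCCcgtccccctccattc
Agrn: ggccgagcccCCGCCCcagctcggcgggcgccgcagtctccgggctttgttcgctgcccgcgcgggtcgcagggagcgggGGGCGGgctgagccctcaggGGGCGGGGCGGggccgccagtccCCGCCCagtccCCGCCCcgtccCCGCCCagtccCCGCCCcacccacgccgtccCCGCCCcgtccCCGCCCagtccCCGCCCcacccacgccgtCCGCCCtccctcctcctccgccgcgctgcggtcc
Tinagl1: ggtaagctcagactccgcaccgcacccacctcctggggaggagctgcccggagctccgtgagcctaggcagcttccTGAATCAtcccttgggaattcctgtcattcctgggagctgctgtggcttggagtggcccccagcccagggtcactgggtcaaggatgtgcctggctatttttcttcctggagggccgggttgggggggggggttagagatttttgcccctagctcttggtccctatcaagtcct
Fbln1: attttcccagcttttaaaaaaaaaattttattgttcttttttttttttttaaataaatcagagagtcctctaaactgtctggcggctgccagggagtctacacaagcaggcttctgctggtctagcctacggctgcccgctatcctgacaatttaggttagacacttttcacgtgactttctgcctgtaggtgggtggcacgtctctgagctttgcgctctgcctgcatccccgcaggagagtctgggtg

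The Agrn sequence had 12 GGGCGG matches and a GC content of 83.6%, the Col4a6 sequence had 1 GGGCGG match, and the Tinagl1 sequence had 1 TGANTCA match. Another Agrn promoter, chr4:156186260-156186509 on the minus strand, had 2 GGGCGG matches and a GC content of 60.8%. None of the 4 motifs was found in the gap between Col4a4 and Col4a3 or in the Fbln1 sequence. The RefSeq table held 31 promoters of 23 members and none for Col4a3, Lama1, Lama3, Lama4, Lamc1, Lamc3, Nid2, Smoc1, Smoc2 and Fras1. GGGCGG was in 16 of the 31 member promoters (51.61%) and in 32.74% of all 32851 promoters of the table in the same 250-base window. CCAAT was in 10 of 31, against 33.85% of all, and TGANTCA in 1 of 31, against 6.749% of all. TATAAA was in 0 of 31, against 12.37% of all. A match is a run of letters and not a shown binding site.

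Sparc, Col4a1, Nid1 and Col4a2 had the highest levels of the capsule genes relative to the gene lengths behind the deposited FPKM. On the FPKM scale (counts divided by gene length and by library total), averaged over the 9 libraries, Sparc had 623 FPKM, Col4a1 363, Nid1 150.3 and Col4a2 146.5, and no other member reached 100. The next were Fbln1 (45.7 FPKM) and Col4a3 (44.9), then Hspg2 (28.6), Col4a5 (27.5), Dag1 (25.5), Col18a1 (25.2), Col4a4 (24.2), Tinagl1 (23.4), Pxdn (21.2), Col4a6 (20.3), Npnt (16.1) and Lamb2 (14.9). Nid1 and Col4a2 changed places between groups: Col4a2 had 184 ± 4.19 FPKM in young control (SD, n = 3) against 148 ± 1.64 for Nid1, while in old control the values were 135 ± 8.48 and 152 ± 16.9. Of the laminin chains Lamb1 (9.47 FPKM), Lamc1 (9.00) and Lama5 (8.70) followed Lamb2, and the Fraser complex genes Frem2 (1.67), Frem1 (0.884) and Fras1 (0.565) were lower still. Of the 33 members 28 had a mean of at least 5 CPM. The 5 below that were Lamb3, Col15a1, Lamc3, Lama4 and Smoc2, and Smoc2, with 0 to 17 counts in a library, was the only member not tested.

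**Figure D1:**
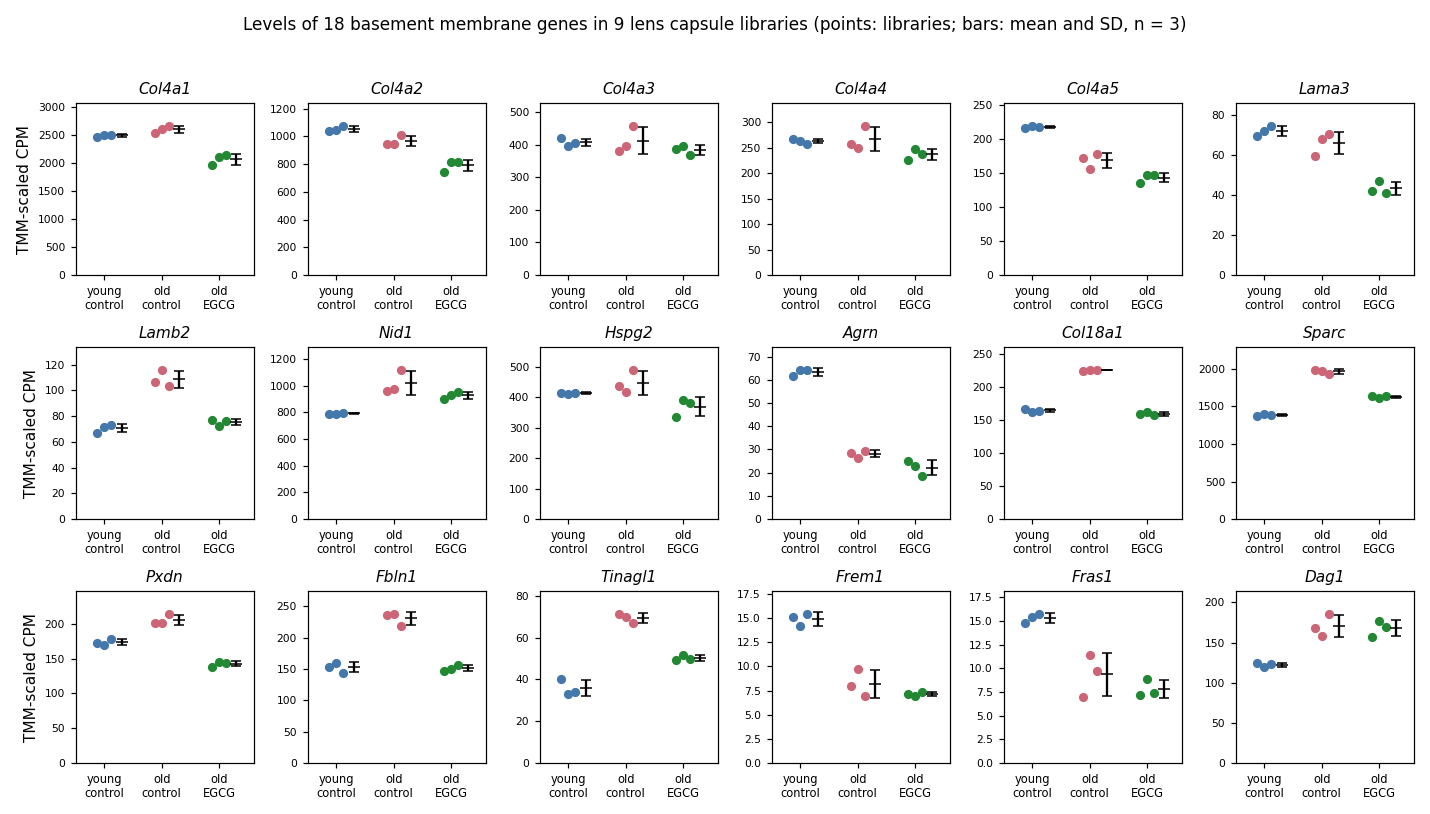
TMM-scaled CPM of 18 members in the 3 young control, 3 old control and 3 old EGCG libraries, with 1 linear axis from 0 per gene; points are libraries and bars are the mean and SD of a group (n = 3). Col4a1 is lowest in the EGCG libraries (1959 to 2151 CPM), Agrn is highest in the young control libraries (61.6 to 64.4 CPM) and Tinagl1 is highest in the old control libraries (66.9 to 71.5 CPM).

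Between old and young control, 13 of the 32 tested members were higher in old control, 9 were lower and 10 were not called (edgeR quasi-likelihood test, Benjamini-Hochberg adjusted p under 0.05). That share is close to the background: 69.2% of the 13711 genes tested were called, 35.4% higher and 33.8% lower. The libraries of the groups did not overlap in 24 members, against 72.1% of all genes. The median log2 fold change was 0.07 for the members and 0.02 for all genes. The direction of the whole list depended on the scaling of the libraries: 7 rose and 18 fell when only library totals were used, 3 and 19 when scaled to lens fibre genes, 5 and 18 on log2(FPKM + 1), and 21 and 5 with the trend of fold change on gene length removed. At 2-fold or more, 1 called member was higher (Lamb3) and 3 were lower (Agrn, Lama4 and Lamc3), against 26.6% of all genes called and changed that much. The median over all genes moved to −0.30 with library size only and to −0.39 with lens fibre scaling. In all 18 alternative settings, Lamb2, Fbln1 and Tinagl1 were called higher and Col4a5, Agrn, Smoc1 and Frem1 lower. The members were long, with a median of 6690 bases against 3722 over all genes tested, and log2 fold change with age fell with length across genes (Spearman's rho −0.33, where genes are not independent replicates).

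Between old EGCG and old control, 21 of 32 members were lower in EGCG, 0 were higher and 11 were not called, and edgeR at an unadjusted p under 0.05 and DESeq2 also gave 0 higher. Of all genes tested 24.1% were called, 10.3% lower and 13.8% higher. The median log2 fold change was −0.28 for the members and −0.00 for all genes, and the libraries of the groups did not overlap in 20 members, against 33.5% of all genes. No member was called higher in EGCG under any of the 18 alternatives, and the number called lower fell to 13 with library size only, to 10 with lens fibre scaling and to 12 on log2(FPKM + 1). The median over all genes was 0.12 and 0.17 under the first and second of these, and the members' median minus that of all genes ranged from −0.32 to −0.22 across the 18 alternatives. The members called lower in every alternative were Col4a1, Lama3, Lama5, Lamb1, Lamb2, Lamc1, Col18a1, Pxdn, Fbln1 and Tinagl1. Lens fibre markers, given above, were also lower in EGCG than in old control, and with the libraries scaled to them 10 members were called lower. No called member reached 2-fold, whereas 8.24% of all genes were both called and changed by at least 2-fold.

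Between old EGCG and young control, 6 members were higher in EGCG, 17 were lower and 9 were not called, where 63.6% of all genes were called, 32.3% higher and 31.4% lower. The groups did not overlap in 25 members, against 68.3% of all genes, and the median log2 fold change was −0.24, against −0.02 for all genes. At 2-fold or more, 1 called member was higher and 4 were lower, against 19.4% of all genes. With the length trend removed 13 members were higher and 10 lower, and by library totals alone 2 and 23. Tinagl1 and Dag1 were called higher, and Col4a2, Col4a5, Col4a6, Lama3, Agrn, Smoc1, Frem1 and Npnt lower, in all 18 alternatives. The 3 comparisons share libraries in pairs, so the changes of a gene in them are given side by side below and are not independent.

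**Figure D2:**
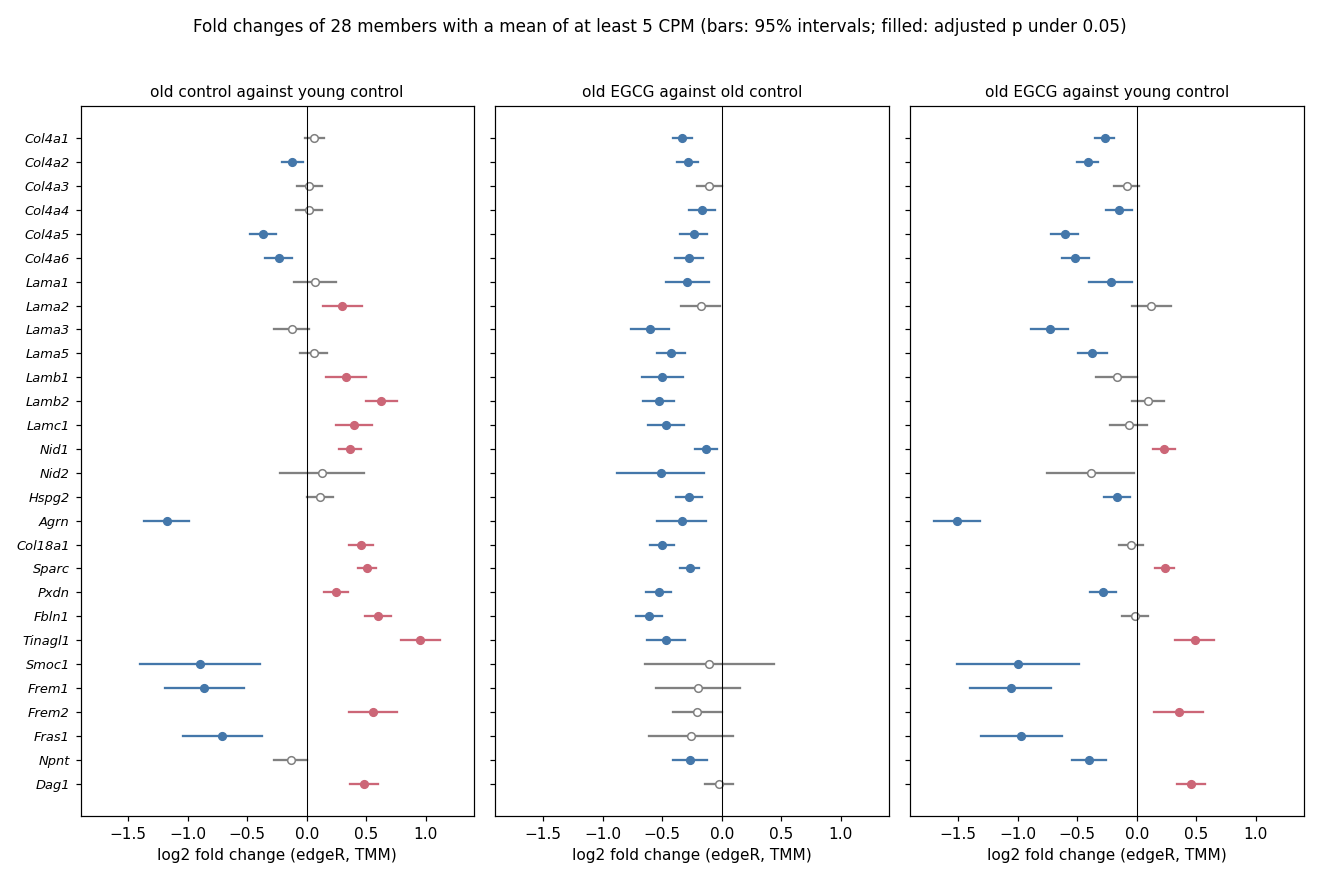
Log2 fold changes of the 28 members with a mean of at least 5 CPM in the 3 comparisons, from edgeR with TMM scaling; points are estimates, bars are 95% intervals, and filled points have an adjusted p under 0.05 (red higher, blue lower, grey open not called). In the middle panel, old EGCG against old control, every filled point lies to the left of 0, while in the left panel filled points lie on both sides, from Agrn at −1.18 to Tinagl1 at 0.95.

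**Figure D3:**
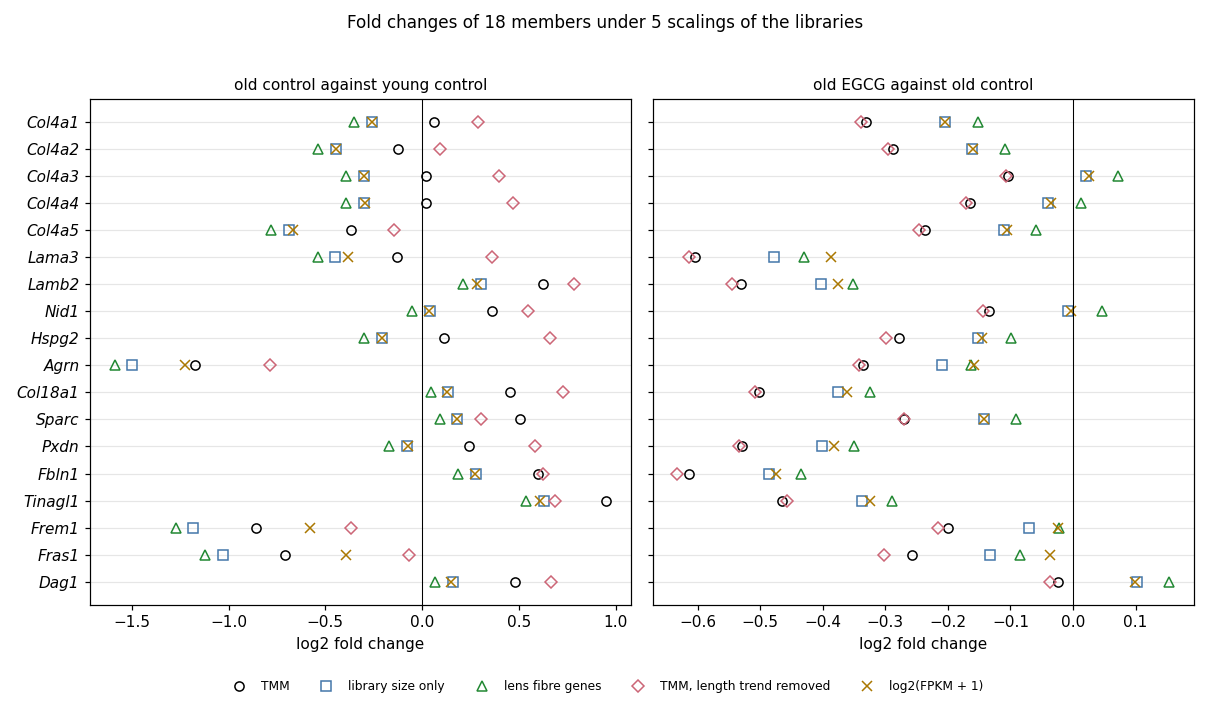
Log2 fold changes of 18 members (rows) under TMM scaling, library size only, lens fibre scaling, TMM with the length trend removed and log2(FPKM + 1), for old against young control (left) and old EGCG against old control (right); each symbol is 1 setting. The symbols of Col4a1 lie on both sides of 0 on the left (−0.35 to 0.29) and all to the left of 0 on the right (−0.34 to −0.15), and Agrn lies below 0 in both panels.

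Collagen IV forms the tension-bearing network of the capsule, and 5 of its 6 chains were lower in EGCG than in old control, where Col4a3 was not called. With library size only 2 of the 6 were called lower in that comparison (Col4a1 and Col4a2), and with lens fibre scaling 1 (Col4a1). Between old and young control Col4a2, Col4a5 and Col4a6 were lower and Col4a1, Col4a3 and Col4a4 were not called, and against young control the same 5 chains as above were lower in EGCG. Of all genes tested, 69.2% were called with age, 24.1% with EGCG against old control and 63.6% with EGCG against young control. With age all 6 chains were called lower with library size only and with lens fibre scaling. With the length trend removed 4 were higher and 1 was lower. Summed over the 6 chains the level was 4573 to 4628 CPM in young control, 4432 to 4746 in old control and 3559 to 3831 in EGCG libraries.

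Col4a1 and Col4a2 encode the chains of the collagen IV trimer found in nearly all basement membranes. Col4a1 (chromosome 8, 11198423 to 11312826, minus strand) had 2473, 2505 and 2509 CPM in the young control, 2546, 2606 and 2669 in the old control and 1959, 2105 and 2151 in the EGCG libraries. The 3 EGCG libraries all lay below the 6 control libraries. The log2 fold change was −0.33 against old control (SE 0.0395, adjusted p = 2.56e-09), −0.27 against young control (adjusted p = 8.50e-08) and 0.06 for old against young control (adjusted p = 0.153). This last value was −0.26 with library size only, −0.35 with lens fibre scaling and 0.29 with the length trend removed. Col4a2 (chromosome 8, 11312805 to 11449287, plus strand) had 1035, 1045 and 1076 CPM in young control, 945, 943 and 1008 in old control and 746, 814 and 813 in EGCG libraries, with no overlap between any of the groups. Its log2 fold change was −0.12 for old against young control (SE 0.0435, adjusted p = 0.0107), −0.29 for EGCG against old control (SE 0.0437, adjusted p = 7.96e-07) and −0.41 for EGCG against young control (adjusted p = 2.30e-11). The age call of Col4a2 was lost without old control replicate 2 (log2 fold change −0.10, adjusted p = 0.0662) or young control replicate 3 (−0.11, adjusted p = 0.0655), and the value was 0.09 with the length trend removed. Its EGCG call was lost with lens fibre scaling (−0.11).

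Col4a3 and Col4a4, with Col4a5, encode the trimer of the kidney glomerulus that is faulty in Alport syndrome, in which the front of the lens can bulge. Col4a3 (chromosome 1, 82586921 to 82722059, plus strand) had 419.7, 397 and 404 CPM in young control, 382, 397 and 458 in old control and 386, 397 and 367 in EGCG libraries. All 3 groups overlapped and no comparison was called, with log2 fold changes of 0.02 for old against young control (−0.09 to 0.12), −0.10 for EGCG against old control (−0.21 to 0.00) and −0.09 for EGCG against young control (−0.19 to 0.02), each with its 95% interval. The age value of Col4a3 was −0.30 with library size only and 0.40 with the length trend removed, and its value for EGCG against old control was called without old control replicate 1 (−0.16, adjusted p = 0.0228). Against young control Col4a3 was called lower in EGCG with library size only, lens fibre scaling, DESeq2 and both FPKM fits. With the length trend removed it was called higher (0.29). Col4a4 (chromosome 1, 82448423 to 82586849, minus strand) had 267, 264 and 258 CPM in young control, 258, 249 and 293 in old control and 227, 248 and 237 in EGCG libraries. The EGCG libraries lay narrowly below both control groups. Its log2 fold change was −0.17 against old control (SE 0.0536, adjusted p = 0.0186), −0.15 against young control (adjusted p = 0.0151) and 0.02 for old against young control (adjusted p = 0.773). The call against old control was lost without old control replicate 3 (−0.09), EGCG replicate 1 (−0.13) or EGCG replicate 3 (−0.16), and with lens fibre scaling the value was 0.01. That against young control was lost without EGCG replicate 1 (−0.11) or young control replicate 1 (−0.14).

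Col4a5 and Col4a6 are the X-linked pair. Col4a5 (chromosome X, 141475385 to 141689234, plus strand) had 217, 219.8 and 218 CPM in young control, 173, 157 and 178 in old control and 135, 147 and 148 in EGCG libraries. The 3 groups were in the same order as for Col4a2, with no overlap. Its log2 fold change was −0.37 for old against young control (SE 0.0543, adjusted p = 7.05e-08), −0.24 for EGCG against old control (SE 0.0555, adjusted p = 8.66e-04) and −0.61 for EGCG against young control (adjusted p = 2.06e-13). Col4a6 had 159 ± 4.11 CPM in young control, 135 ± 6.33 in old control and 112 ± 4.88 in EGCG libraries (SD, n = 3), and its changes in the same order were −0.24, −0.28 and −0.51 (adjusted p = 2.39e-04, 1.76e-04 and 6.85e-11). The EGCG calls of both genes against old control were lost with library size only (−0.11 for Col4a5 and −0.15 for Col4a6), while the age call of Col4a6 became 0.00 with the length trend removed.

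The share of each chain in the summed FPKM of its family does not depend on a factor that scales a whole library. Removal of the length trend shifts genes of different length differently, and shares were not computed under it. Col4a1 took 56.4%, 56.8% and 56.4% of collagen IV in the young control libraries, 59.8%, 60.4% and 58.8% in the old control libraries and 57.8%, 57.7% and 58.7% in the EGCG libraries. Col4a5 took 4.99% ± 0.0440 in young control, 3.91% ± 0.222 in old control and 4.06% ± 0.0283 in EGCG libraries (SD, n = 3). The ratio of Col4a2 to Col4a1 was 0.432 ± 0.00659 in young control, 0.380 ± 0.00802 in old control and 0.391 ± 0.00459 in EGCG libraries, and the 3 groups did not overlap. The ratio of Col4a4 to Col4a3 was 0.546 ± 0.0141, 0.546 ± 0.0213 and 0.523 ± 0.0253 in the same order, with overlapping libraries, and that of Col4a6 to Col4a5 was 0.707 ± 0.0224, 0.777 ± 0.0737 and 0.754 ± 0.00575. Over 21 such shares and ratios in 3 comparisons, the smallest p that 3 libraries against 3 allow in a two-sided exact permutation test is 0.1. It was reached for the Col4a2 to Col4a1 ratio in every comparison and became 0.191 after Benjamini-Hochberg adjustment over the 63 tests, so no share passed a threshold of 0.05.

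**Figure D4:**
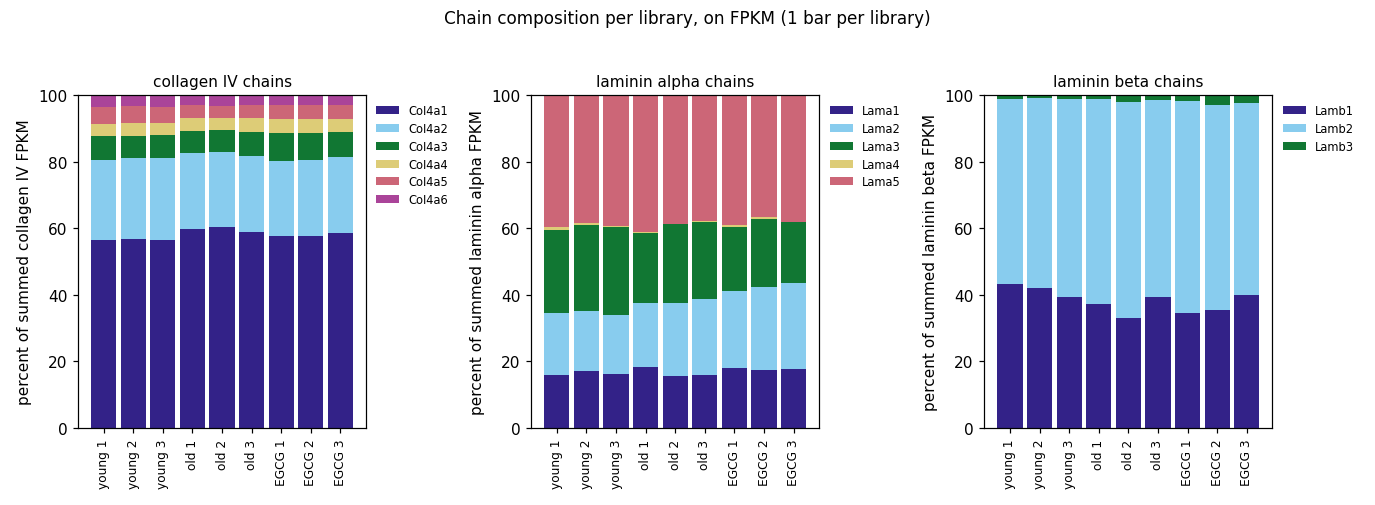
Composition of collagen IV, laminin α and laminin β transcripts in each of the 9 libraries, as percent of the summed FPKM of the family; each bar is 1 library and each colour 1 chain. Col4a1 and Col4a2 together fill most of each collagen IV bar, and in the laminin α panel the Lama3 part is smaller in the EGCG libraries (18.1% to 20.6%) than in the young control libraries (24.8% to 26.3%).

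Laminins, heterotrimers of an α, a β and a γ chain, start the assembly of the sheet, and they were mostly lower with EGCG. Of 10 chains tested, 6 were lower in EGCG than in old control (Lama1, Lama3, Lama5, Lamb1, Lamb2 and Lamc1) and 4 were not called. Between old and young control 5 were higher (Lama2, Lamb1, Lamb2, Lamb3 and Lamc1), 2 were lower (Lama4 and Lamc3) and 3 were not called. Against young control 1 chain was higher in EGCG and 4 were lower. The chains summed to 455 to 470.3 CPM in young control, 538 to 561 in old control and 399.8 to 407 in EGCG libraries.

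Lamb2 encodes the laminin β2 chain, which is faulty in a syndrome of kidney and eye. It had 67.0, 71.7 and 72.9 CPM in young control, 106, 116 and 104 in old control and 76.8, 72.6 and 76.5 in EGCG libraries (chromosome 9, 108479736 to 108490530, plus strand). The old control libraries lay above all others, and young control and EGCG libraries overlapped. Its log2 fold change was 0.62 with age (SE 0.0644, adjusted p = 7.52e-12), −0.53 for EGCG against old control (SE 0.0648, adjusted p = 5.00e-09) and 0.09 for EGCG against young control (−0.04 to 0.23, adjusted p = 0.209). Lama3 encodes the α3 chain of laminins that anchor epithelia. It had 69.3, 72.2 and 74.6 CPM in young control, 59.7, 67.9 and 70.5 in old control and 42.2, 47.0 and 40.9 in EGCG libraries. The EGCG libraries were lowest and both control groups overlapped. Its log2 fold change was −0.60 for EGCG against old control (SE 0.0779, adjusted p = 1.93e-08), −0.73 against young control (SE 0.0770, adjusted p = 1.84e-11) and −0.13 with age (adjusted p = 0.123). The age value of Lama3 was −0.45 and called with library size only and 0.36 with the length trend removed.

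The widely expressed chains Lama5, Lamb1 and Lamc1 fell with EGCG by similar amounts. Lama5 had 111 ± 2.20, 116 ± 3.07 and 86.0 ± 1.22 CPM in young control, old control and EGCG libraries (SD, n = 3), with a log2 fold change of −0.43 for EGCG against old control (adjusted p = 8.79e-08). Lamb1 had 52.9 ± 2.55, 66.6 ± 5.26 and 47.1 ± 6.95 CPM, with changes of 0.33 with age (adjusted p = 4.72e-04) and −0.50 with EGCG (adjusted p = 6.66e-06). Lamc1 had 63.3 ± 5.46, 83.5 ± 3.77 and 60.3 ± 6.64 CPM, with changes of 0.40 (adjusted p = 7.84e-06) and −0.47 (adjusted p = 3.15e-06). The age calls of Lamb1 and Lamc1 were lost with library size only (0.01 and 0.08) and turned to −0.08 and −0.01 with lens fibre scaling. Lama1, the α chain of embryonic lens capsule laminin, had 38.8 ± 1.12, 40.8 ± 2.96 and 33.4 ± 0.0682 CPM. Its EGCG change of −0.29 against old control (adjusted p = 0.0135) was lost without old control replicate 1 (−0.24, adjusted p = 0.0823) and with library size only (−0.16), and that of −0.22 against young control was lost without any of 5 libraries: EGCG replicates 1 to 3 and young control replicates 2 and 3 (−0.22 to −0.20). Lama2, the α chain best known from muscle, had 50.8 ± 0.658, 62.6 ± 7.46 and 55.3 ± 4.51 CPM and was higher with age (0.30, adjusted p = 0.00108, but −0.02 with library size only). It was not called for EGCG against old control (−0.18, adjusted p = 0.111), except without old control replicate 1 (−0.26, adjusted p = 0.0160).

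Lama4, Lamb3 and Lamc3 had means under 5 CPM. Lama4, a chain of vessel laminin, had 0.956 ± 0.373 CPM in young control and 0.204 ± 0.295 in old control, with 0 counts in 1 old control library, and Lamc3 had 1.42 ± 0.509 and 0.492 ± 0.0911 CPM. In EGCG libraries Lama4 had 0.379 ± 0.263 CPM. It was not called against old control (log2 fold change 0.97, adjusted p = 0.502) or young control (−1.29, adjusted p = 0.113), the latter called on log2(FPKM + 0.1). The age calls of Lama4 (adjusted p = 0.0119) and Lamc3 (adjusted p = 0.0362) rested on few counts: that of Lama4 was lost without old control replicate 1 or 2 or young control replicate 1 (adjusted p 0.0679 to 0.0876), and that of Lamc3 without any old control library or young control replicate 2 or 3 (adjusted p 0.0658 to 0.164). Lamc3 was also lower in EGCG than in young control (log2 fold change −2.07), a call lost without EGCG replicate 1 or 3 or young control replicate 3 (adjusted p 0.0561 to 0.0600), and it was called lower in EGCG than in old control without EGCG replicate 2 (adjusted p = 0.0431). Endothelial marker levels, given above, were also highest in young control, and their part in these values was not tested. Lamb3, which pairs with the α3 chain in epithelia, had 0.994 ± 0.160, 2.15 ± 0.702 and 2.15 ± 0.481 CPM in young control, old control and EGCG libraries, with calls against young control in both comparisons (log2 fold changes 1.11 and 1.11). The first was lost without old control replicate 2 (0.82) or young control replicate 2 (0.98), and the second without EGCG replicate 2 (0.97), EGCG replicate 3 (1.06) or young control replicate 2 (0.98). Both were also lost with library size only and with lens fibre scaling, and the first also in both FPKM fits.

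Within the laminin α chains, Lama5 held the greatest share of FPKM in every group, 39.1% ± 0.599 in young control, 39.2% ± 1.84 in old control and 38.0% ± 1.24 in EGCG libraries. Lama3 held 25.6% ± 0.752, 22.6% ± 1.38 and 19.3% ± 1.22 in the same order, and Lama2 held 18.1% ± 0.358, 21.4% ± 1.84 and 24.7% ± 1.53. The libraries of the 3 groups did not overlap for either chain, at the smallest exact p that the design allows (0.1, adjusted 0.191). Lamb2 held 57.4% ± 1.98 of the β chains in young control and 61.8% ± 2.85 in old control, with overlap, and Lamc1 held 97.3% to 100% of the γ chains.

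Nidogens bridge the laminin and collagen IV networks. Nid1 (chromosome 13, 13437551 to 13512269, plus strand) had 790.3, 789 and 798 CPM in young control, 963, 973 and 1119 in old control and 901, 928 and 955 in EGCG libraries. The young control libraries were lowest, and the EGCG libraries lay between them and the old control libraries. The log2 fold change was 0.36 with age (SE 0.0463, adjusted p = 2.53e-09), 0.23 for EGCG against young control (adjusted p = 3.36e-05) and −0.13 for EGCG against old control (SE 0.0463, adjusted p = 0.0283). The age value was 0.04 with library size only, not called, and −0.05 with lens fibre scaling. The EGCG call against old control was lost without old control replicate 3 (−0.06), EGCG replicate 1 (−0.11), EGCG replicate 2 (−0.13) or young control replicate 3 (−0.13), and the value was 0.05 with lens fibre scaling. That call was also lost with library size only, in both FPKM fits and with only the 2 groups compared. The call of Nid1 against young control was lost with library size only, with lens fibre scaling (−0.0048) and in both FPKM fits. Nid2 was far lower, at 10.5 ± 0.476, 11.5 ± 2.68 and 8.07 ± 1.71 CPM. Its EGCG change of −0.51 (adjusted p = 0.0330) came from overlapping libraries and was lost without old control replicate 3 (−0.32), EGCG replicate 1 (−0.43) or EGCG replicate 2 (−0.42). It was also lost in DESeq2 (adjusted p = 0.0562), with library size only (−0.39), with lens fibre scaling (−0.33) and in both FPKM fits. Against young control Nid2 was not called (−0.39, adjusted p = 0.0595), but it was called lower in 7 of the 18 alternatives, with adjusted p-values from 0.00287 with lens fibre scaling to 0.0482 with only the 2 groups compared. With age it was not called (adjusted p = 0.531), and its value ran from −0.29 to 0.27 over the alternatives. Nid1 held 98.3% to 99.1% of the nidogen FPKM in every library.

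Among the proteoglycans and multiplexins, several of which carry heparan sulfate chains that bind growth factors, 3 of 4 tested were lower with EGCG than in old control. In that comparison 10.3% of all genes tested were called lower. Agrn, agrin, known from the neuromuscular synapse, had the greatest change of the well expressed members. It had 61.6, 64.4 and 64.4 CPM in young control, 28.3, 26.5 and 29.5 in old control and 25.2, 23.0 and 18.5 in EGCG libraries (chromosome 4, 156165290 to 156197488, minus strand). The young control libraries lay far above all 6 libraries of the old groups, and the old control libraries lay above the EGCG libraries. Agrn changed by a log2 fold change of −1.18 with age (SE 0.0934, adjusted p = 2.11e-15, 2.26-fold lower) and −1.51 for EGCG against young control (SE 0.0959, adjusted p = 1.40e-18). For EGCG against old control it was −0.34 (SE 0.101, adjusted p = 0.0107), a call lost without EGCG replicate 3 (−0.22, adjusted p = 0.138) and with library size only (−0.21). Agrn is also expressed by neural tissue, and photoreceptor marker levels, given above, were highest in young control and higher in EGCG than in old control libraries, whereas Agrn was lowest in EGCG. Their part in the age difference was not tested.

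Col18a1 encodes collagen XVIII, the source of endostatin, and had 167, 162 and 163 CPM in young control, 224, 226 and 226 in old control and 158, 162 and 157 in EGCG libraries (chromosome 10, 77052178 to 77166548, minus strand). The old control libraries lay above all others. The log2 fold change was 0.46 with age (SE 0.0503, adjusted p = 4.81e-11; 0.04 and not called with lens fibre scaling) and −0.50 for EGCG against old control (SE 0.0507, adjusted p = 2.66e-11). EGCG against young control was not called (−0.05, −0.15 to 0.06). Hspg2, perlecan, the large core proteoglycan of the capsule, had 416, 411 and 415 CPM in young control, 436, 416 and 491 in old control and 334, 392 and 380.5 in EGCG libraries (chromosome 4, 137468769 to 137570630, plus strand). The EGCG libraries were lowest. Its change was −0.28 against old control (SE 0.0536, adjusted p = 6.14e-05; −0.10 and not called with lens fibre scaling) and −0.17 against young control (adjusted p = 0.00623), a call lost without EGCG replicate 1 (−0.09). With age Hspg2 was not called (0.11, adjusted p = 0.0592), but it was called higher without old control replicate 1 (0.14) or 2 (0.17) or EGCG replicate 1 (0.12) or 2 (0.12). It was also called higher with the length trend removed (0.66), with no filter and with the replicate number as a block. With library size only (−0.21), lens fibre scaling and both FPKM fits it was called lower. Col15a1, collagen XV, had 1.42 ± 0.534 CPM in young control, 0.661 ± 0.301 in old control and 0.392 ± 0.190 in EGCG libraries, and was called lower in EGCG than in young control (adjusted p = 0.00782), a call lost without young control replicate 3 (adjusted p = 0.0548). With age it was not called (−1.10, adjusted p = 0.0807), but 5 of the 18 alternatives called it lower: library size only, lens fibre scaling, both FPKM fits and only the 2 groups compared (adjusted p 0.0158 to 0.0420).

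Matricellular and crosslinking proteins bind or modify the collagen and laminin networks. Of 5 tested, 4 were higher with age (Sparc, Pxdn, Fbln1 and Tinagl1) and 1 was lower (Smoc1). The first 4 were lower in EGCG than in old control. The shares called over all genes tested were 69.2% with age and 24.1% with EGCG against old control. Among these 5 genes, library totals alone left 3 higher with age and 1 lower, whereas lens fibre scaling gave 2 in each direction. For EGCG against old control, the former setting called 4 of them lower and the latter called 3. Sparc, osteonectin, which binds collagen and whose loss causes cataract in mice, had 1374, 1402 and 1382 CPM in young control, 1989, 1975 and 1933 in old control and 1634, 1614 and 1643 in EGCG libraries (chromosome 11, 55394500 to 55423183, minus strand). The 3 groups were fully separate, with EGCG between the control groups. Sparc had a log2 fold change of 0.50 with age (SE 0.0387, adjusted p = 6.65e-16), −0.27 for EGCG against old control (SE 0.0386, adjusted p = 2.13e-07) and 0.23 for EGCG against young control (adjusted p = 9.76e-07). With lens fibre scaling none of these was called for Sparc (0.09, −0.09 and 0.00), and the last was also not called with library size only (0.04). Acta2 and Pdgfrb, given above, were ordered over the groups in the same way as Sparc, while 6 of the 9 pericyte and smooth muscle markers were lower with age, and their part in its values was not tested.

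Tinagl1 encodes a secreted cathepsin-like protein without protease activity, and had 40.4, 33.02 and 34.2 CPM in young control, 71.5, 69.7 and 66.9 in old control and 49.1, 51.6 and 50.003 in EGCG libraries (chromosome 4, 130164454 to 130175122, minus strand). The 3 groups did not overlap. Tinagl1 was 1.93-fold higher with age (log2 fold change 0.95, SE 0.0806, adjusted p = 1.70e-14), 1.38-fold lower in EGCG than in old control (log2 fold change −0.47, SE 0.0793, adjusted p = 7.69e-06) and 1.401-fold higher in EGCG than in young control (adjusted p = 1.48e-06). Fbln1, fibulin-1, a calcium-binding matrix protein, had 154, 160.1 and 144 CPM in young control, 236, 238 and 219 in old control and 147, 149.8 and 156 in EGCG libraries (chromosome 15, 85205949 to 85286535, plus strand). The old control libraries were highest and the other groups overlapped. Its log2 fold change was 0.60 with age (SE 0.0539, adjusted p = 1.19e-13) and −0.61 for EGCG against old control (SE 0.0543, adjusted p = 4.68e-13), the smallest p of any member in that comparison. EGCG against young control gave −0.02 (−0.13 to 0.09), which was not called. With library size only that value was −0.21 and called.

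Pxdn encodes peroxidasin, the enzyme that forms the sulfilimine crosslinks of collagen IV. It had 173, 170.2 and 178 CPM in young control, 201, 201 and 215 in old control and 139, 145 and 144 in EGCG libraries (chromosome 12, 29937608 to 30017658, plus strand). The old control libraries were highest and the EGCG libraries lowest, with no overlap. Pxdn had a log2 fold change of −0.53 for EGCG against old control (SE 0.0527, adjusted p = 1.94e-11), −0.28 against young control (adjusted p = 7.94e-06; 0.05 with the length trend removed) and 0.24 with age (adjusted p = 5.52e-05). The age direction of Pxdn turned with scaling, to −0.08 with library size only and −0.17 with lens fibre scaling. Smoc1, a calcium-binding protein related to Sparc, fell from 7.5004 ± 0.610 CPM in young control to 4.02 ± 1.33 in old control (log2 fold change −0.89, adjusted p = 0.00161) and stood at 3.76 ± 1.13 in EGCG libraries, where it was not called against old control (−0.10, adjusted p = 0.830).

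The Fraser complex of Fras1, Frem1 and Frem2 holds epithelia to the matrix beneath them, and its loss leads to fused eyelids. Here its genes differed in direction. Frem1 had 15.1, 14.1 and 15.5 CPM in young control, 7.98, 9.70 and 6.89 in old control and 7.17, 6.92 and 7.36 in EGCG libraries (chromosome 4, 82897920 to 83052339, minus strand). The young control libraries lay above all others. It fell by 0.86 on the log2 scale with age (SE 0.164, adjusted p = 1.04e-05) and was lower in EGCG than in young control (log2 fold change −1.06, adjusted p = 3.70e-07), with no call for EGCG against old control (−0.20, −0.55 to 0.15). Fras1 had 14.8, 15.5 and 15.8 CPM in young control, 6.94, 11.4 and 9.75 in old control and 7.17, 8.91 and 7.36 in EGCG libraries (chromosome 5, 96373955 to 96784728, plus strand). Its changes were −0.71 with age (SE 0.166, adjusted p = 1.98e-04) and −0.97 for EGCG against young control (adjusted p = 2.69e-06), with −0.26 for EGCG against old control (−0.61 to 0.10), not called. Both calls of Fras1 were lost with the length trend removed (−0.07, and −0.37 with an adjusted p of 0.0515). Frem2 went the other way, from 31.4 ± 4.62 CPM in young control to 46.2 ± 5.56 in old control (log2 fold change 0.56, adjusted p = 4.86e-06) and 40.002 ± 4.63 in EGCG libraries (0.35 against young control, adjusted p = 0.00273), with −0.20 for EGCG against old control (adjusted p = 0.146), not called. The age call of Frem2 was lost with lens fibre scaling (0.14), and the call against young control without young control replicate 2 (0.24, adjusted p = 0.0586) and with library size only (0.16). Npnt, nephronectin, an integrin ligand that binds to this complex, had 86.0 ± 4.38, 78.3 ± 6.79 and 65.2 ± 3.50 CPM in young control, old control and EGCG libraries. It was lower in EGCG than in both control groups (log2 fold change −0.26 against old, adjusted p = 0.00393, lost with library size only at −0.14, with lens fibre scaling and in both FPKM fits; −0.40 against young, adjusted p = 3.06e-06) and was not called with age (−0.13, adjusted p = 0.0794). In 8 of the 18 alternatives Npnt was called lower with age: −0.45 with library size only, −0.55 with lens fibre scaling, −0.18 in DESeq2 and with only the 2 groups compared, −0.43 and −0.45 in the FPKM fits, −0.19 without old control replicate 3 and −0.18 without young control replicate 2.

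Dag1 encodes dystroglycan, the receptor that binds laminin, perlecan and agrin on the cell surface. It had 124, 119.6 and 123 CPM in young control, 168, 159 and 186 in old control and 157, 177 and 169.9 in EGCG libraries (chromosome 9, 108204634 to 108263958, minus strand). The young control libraries were lowest, and the old control and EGCG libraries overlapped. The log2 fold change was 0.48 with age (SE 0.0584, adjusted p = 6.77e-10; 0.07 and not called with lens fibre scaling) and 0.46 for EGCG against young control (SE 0.0585, adjusted p = 3.50e-09). EGCG against old control gave −0.02 (−0.14 to 0.09), which was not called.

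Genes that make, modify or bind the same sheet were read from 6 lists, whose counts stand beside the 69.2% of all genes called with age and the 24.1% called with EGCG against old control. In the list of collagen folding and secretion, 9 of 20 tested genes were lower in EGCG than in old control and 1 was higher (Mia2, which helps load procollagen for export; log2 fold change 0.32, adjusted p = 0.00680), and with age 11 were higher and 2 lower. The 10 of 20 called with EGCG lie above the 24.1% of all genes, and the 13 of 20 called with age are close to the 69.2%. P4ha1, the catalytic subunit of prolyl 4-hydroxylase, which stabilises the collagen helix, was at 293 ± 7.20 CPM in old control and 201 ± 9.17 in EGCG libraries (SD, n = 3; log2 fold change −0.54, adjusted p = 1.74e-12). Plod2, a lysyl hydroxylase for collagen crosslinks, was at 40.3 ± 3.04 CPM in young control, 85.5 ± 1.14 in old control and 54.8 ± 2.65 in EGCG libraries (log2 fold changes 1.09 with age and −0.64 with EGCG). P4ha2, the other catalytic subunit, changed by 0.89 and −0.46, and P4hb, the shared β subunit, by 0.92 with age and −0.04 with EGCG, the latter not called. Scaled by library totals alone, 8 genes of the list were higher and 7 lower with age, and 3 higher and 4 lower with EGCG. With lens fibre scaling these were 6 and 7, and 3 and 3.

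Among 19 tested receptors of the basement membrane, 12 were higher and 2 lower with age, and in EGCG against old control 0 were higher, in edgeR also at an unadjusted p under 0.05 and in DESeq2, and 7 lower. The 14 of 19 called with age are close to the 69.2% of all genes, and the 7 of 19 with EGCG stand against 24.1%. Sdc1, a cell-surface heparan sulfate proteoglycan, rose from 54.7 ± 3.19 to 141 ± 4.38 CPM with age (log2 fold change 1.37, adjusted p = 4.45e-24), and Itga6, the integrin α6 that binds laminins, from 260.4 ± 8.87 to 454 ± 25.4 CPM (0.80). Sdc4, another syndecan, changed by 0.92 with age and −0.44 with EGCG. The collagen receptors Ddr2 and Ddr1 changed by −0.57 and −0.32 with EGCG, where the value of Ddr1 was −0.15 and not called with lens fibre scaling. By library totals alone 11 receptors were higher and 6 lower with age, and 1 higher and 4 lower with EGCG, and with lens fibre scaling 9 and 6, and 1 and 2. Lens epithelium marker sums, given above, were also higher in both old groups than in young control. Of these 12 markers, 7 were called higher and 4 lower with age, and 5 higher and 5 lower for EGCG against young control. The part of the lens epithelium in the age counts was not tested.

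The enzymes that build the laminin-binding glycan of dystroglycan gave 6 higher and 3 lower of 17 with age and 3 higher and 0 lower with EGCG (edgeR; 1 lower at an unadjusted p under 0.05, and 0 lower in DESeq2). With age 9 of 17 were called, a smaller share than the 69.2% of all genes, and 3 of 17 with EGCG stand against 24.1%. With age Rxylt1, a xylosyltransferase, changed by 1.11 and Pomt2, an O-mannosyltransferase, by −1.02. With EGCG Gmppb, which makes the mannose donor, changed by 0.63 and Dolk, dolichol kinase, by 0.39. The Gmppb call was lost in DESeq2 and without 4 single libraries (old control replicates 1 and 3 and EGCG replicates 2 and 3), and the Dolk call in DESeq2 and without 7 (every old control and EGCG library and young control replicate 3), with values of 0.51 to 0.82 for Gmppb and 0.32 to 0.57 for Dolk across all alternatives. The age split of this list by library totals alone was 1 higher and 7 lower, and 1 and 8 with lens fibre scaling, and the EGCG split 6 and 0, and 7 and 0.

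Of 18 genes of heparan sulfate synthesis and editing, 7 were higher and 6 lower with age and 3 were higher and 1 lower with EGCG. The 13 of 18 and the 4 of 18 called are close to the 69.2% and 24.1% of all genes. Hs6st1, a sulfotransferase, rose from 57.2 ± 1.07 to 115 ± 7.89 CPM with age (log2 fold change 1.005, adjusted p = 1.20e-18). Ext1, a polymerase of the chain, changed by 0.92 with age and 0.22 with EGCG, the latter not called without EGCG replicate 2 (adjusted p in the full set 0.00661), and Fam20b, a xylose kinase, by 0.56 with age, not called with lens fibre scaling (0.14). The extracellular sulfatases differed: with EGCG Sulf1 changed by −0.41 (not called with lens fibre scaling, −0.23) and Sulf2 by 0.57 (not called without old control replicate 2). By library totals alone the age split was 4 higher and 10 lower, and 3 and 10 with lens fibre scaling, and the EGCG split 7 and 1, and 8 and 0.

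Of 18 other basement membrane proteins, 7 were higher and 8 lower with age, and 1 was higher and 3 lower with EGCG. With age 15 of 18 were called, against 69.2% of all genes, and the 4 of 18 with EGCG are close to 24.1%. The greatest changes of all the genes named here were in this list. With age its log2 fold changes ran from −5.16, for a gene not named here, to 3.78. Tinag, the tubulointerstitial nephritis antigen and the closest relative of Tinagl1, rose from 5.57 ± 0.716 CPM in young control to 76.5 ± 5.15 in old control (13.7-fold; log2 fold change 3.78, adjusted p = 5.39e-33) and was not called with EGCG against old control (−0.15, adjusted p = 0.166). Egflam, pikachurin, a dystroglycan ligand of the photoreceptor synapse, fell from 91.0 ± 3.87 to 8.84 ± 0.614 CPM with age (10.3-fold; log2 fold change −3.36, adjusted p = 4.28e-31) and stood at 25.6 ± 3.10 CPM with EGCG (2.88-fold above old control, log2 fold change 1.53, adjusted p = 6.74e-16). The photoreceptor marker sum was ordered as Egflam over the 3 groups, and its part in these values was not tested. Col7a1, the anchoring fibril collagen, fell 6.17-fold with age (16.1 ± 3.11 to 2.58 ± 1.06 CPM). Matn2, a matrilin, and Fbln5, a fibulin of elastic fibres, changed by −0.55 and −0.68 with EGCG, and the Fbln5 call was lost with lens fibre scaling (−0.50). By library totals alone, and also with lens fibre scaling, the age split was 6 higher and 10 lower, and the EGCG split 2 and 3, and 2 and 1.

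Of 17 genes of basement membrane proteolysis, 7 were higher and 4 lower with age, and 1 was higher and 7 lower with EGCG. The 11 of 17 called with age are close to the 69.2% of all genes, and the 8 of 17 with EGCG stand against 24.1%. The gene higher with EGCG was Mmp9, gelatinase B, at 0.602 ± 0.228 CPM in old control and 2.26 ± 1.03 in EGCG libraries (log2 fold change 1.92, adjusted p = 9.71e-04). The Mmp9 value rested on few counts, as 3 counts corresponded to 0.202 to 0.232 CPM in the old control and EGCG libraries. The metalloproteinase inhibitors Timp2 and Timp3 rose with age, from 225 ± 0.871 to 424 ± 4.94 CPM and from 252 ± 7.71 to 474 ± 29.5 CPM (log2 fold changes 0.91 and 0.91). Ctsl, the lysosomal protease cathepsin L, rose from 627 ± 13.2 to 1016 ± 39.1 CPM (0.70). With EGCG Timp3 changed by −0.39, Ctsl by −0.33 and Adamts4, a proteoglycan-cleaving protease, by −0.32, where the last was not called with lens fibre scaling (−0.15) or on log2(FPKM + 1). By library totals alone the age split was 4 higher and 7 lower, and 4 and 8 with lens fibre scaling, and the EGCG split 2 and 5, and 2 and 4.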

How the data were processed

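Anterior lens capsule RNA was sequenced after library preparation with the SMARTER kit for mRNA, per the labels' protocols. GRCm38, also called mm10, is the build in the submitters' processing notes. The aligner, counter, annotation and strand setting were not named. The authors deposited raw read counts for each gene symbol and a table of FPKM values. Each deposited FPKM value was the count over the library total and over a fixed gene length (138164 of 138164 entries with a count, within 0.01%), so FPKM carries no scaling beyond library size, and gene lengths were taken from this relation. For some members these lengths differ widely from the exon bases in GENCODE M21: 23328 against 13255 for Frem2, 2175 against 4358 for Tinagl1 and 5846 against 9917 for Lamb1. The FPKM ranks, chain shares and length trend rest on the lengths from the deposited FPKM. Strand use being unknown, reads in exon overlaps could be shared. At most 8.45% of a member's exon bases overlap another gene (Nid2).

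Counts were tested with edgeR 4.0.16 in R 4.3.3 (TMM factors, filterByExpr, glmQLFit and glmQLFTest, two-sided, 13711 genes, all 9 libraries in 1 fit of group means, biological coefficient of variation 7.89%). P-values were adjusted by Benjamini-Hochberg over all genes tested and called under 0.05. Standard errors came from the size of the log2 fold change and its F statistic. The pipeline was tested on simulated data. These held no length trend and no difference in tissue make-up between groups, so they cannot show which scaling is right. TMM factors were 0.881 to 0.926 in old control, 0.981 to 0.989 in EGCG and 1.118 to 1.131 in young control libraries. Libraries of a group differed by more than sampling noise (chi-square over degrees of freedom 2.58 to 7.57), so none was merged. Intervals and the 3-count floor cover counting error and library spread only.

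Alternatives were library size only; scaling to the median of 17 lens fibre markers; removal of each library's lowess trend on gene length; DESeq2 1.42.0; limma 3.58.1 on log2 of FPKM plus 1 or 0.1; no filter; only the 2 groups compared; a replicate block; and leaving out each library. Members, lists and the rule for named genes were chosen with earlier results of these data known. Values in every library are given for the 8 members with the highest mean CPM and the 4 called members with the smallest p in each direction of each comparison; the other members are summarised. From a pathway list, up to 3 called genes are named for each of the first 2 comparisons, by smallest p, and 1 gene so chosen is not reported here. Genes named beyond that, where they spell out a count, a call lost or a family, were chosen after their values were seen.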

Additional observations from a re-analysis of the deposited data

How the results depend on the processing

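Of the 22, 21 and 23 members called in old against young control, EGCG against old control and EGCG against young control, 7, 10 and 10 were called in the same direction in all 18 alternatives. The median log2 fold change of the members with age, 0.07, became −0.25 with library size only, −0.35 with lens fibre scaling, −0.20 on log2(FPKM + 1), −0.25 on log2(FPKM + 0.1) and 0.43 with the length trend removed. For EGCG against old control, 21 members and a median of −0.28 became 13 and −0.16 with library size only, 10 and −0.10 with lens fibre scaling, 12 and −0.13 on log2(FPKM + 1), and 12 and −0.15 on log2(FPKM + 0.1). For EGCG against young control, the median of −0.24 became −0.44 with library size only, −0.48 with lens fibre scaling, −0.43 on log2(FPKM + 0.1) and 0.01 with the length trend removed. Among members called in the main test or in the alternative, log2 fold changes that changed sign with age were, with library size only, Col4a1 −0.26, Col4a3 −0.30, Col4a4 −0.30, Lama1 −0.25, Lama2 −0.020, Lama5 −0.26, Hspg2 −0.21 and Pxdn −0.076; with lens fibre scaling, Col4a1 −0.35, Col4a3 −0.39, Col4a4 −0.39, Lama1 −0.34, Lama2 −0.11, Lama5 −0.36, Lamb1 −0.081, Lamc1 −0.011, Nid1 −0.051, Hspg2 −0.30 and Pxdn −0.17; on log2(FPKM + 1), Col4a1 −0.26, Col4a3 −0.30, Col4a4 −0.29, Lama1 −0.20, Lama2 −0.021, Lama5 −0.24, Hspg2 −0.21 and Pxdn −0.074; on log2(FPKM + 0.1), Col4a1 −0.26, Col4a3 −0.31, Col4a4 −0.30, Lama1 −0.25, Lama2 −0.027, Lama5 −0.26, Hspg2 −0.21 and Pxdn −0.076; and with the length trend removed, Col4a2 0.091, Col4a6 0.0028 and Lama3 0.36. For EGCG against old control they were Col4a4 0.013 and Nid1 0.046 with lens fibre scaling. For EGCG against young control they were Nid1 −0.0048 with lens fibre scaling and, with the length trend removed, Col4a3 0.29, Col4a4 0.30, Lama1 0.20, Lama5 0.11, Lamc1 0.23, Hspg2 0.36, Col18a1 0.22 and Pxdn 0.050. Leaving out the single-library settings, members called in neither also changed sign in at least 1 setting: Nid2, Col4a3 and Col4a4 with age, Col4a3, Lama2, Lamb3, Smoc1 and Dag1 for EGCG against old control, and Lama2 and Lamb2 for EGCG against young control. The cause was not tested. Leaving out 1 library gave 20 to 23, 18 to 22 and 19 to 24 members called in the 3 comparisons, with medians of 0.05 to 0.11, −0.32 to −0.26 and −0.29 to −0.22. With the replicate number as a block 23, 21 and 24 members were called. Same-numbered libraries did not deviate together (correlation −0.00545 to 0.0361 over 9 pairs, −0.0281 to 0.0231 over 18 pairs of other numbers), so the numbers were not used as a pairing. The calls of Lama4, Lamb3, Lamc3 and Col15a1, whose means were under 5 CPM, were each lost in at least 1 alternative.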
